A study of Macaca fascicularis with 56 samples.

Results

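The step from 4 to 8 h in the peptide control arm was followed in whole blood of 4 cynomolgus macaques, Y31305 to Y31308. Each animal gave 1 array at 4 h and 1 at 8 h, so 8 of the 56 arrays of the series were compared, paired by the animal number in the sample titles. The series title speaks of a challenge with endotoxin and then LR12 or a scrambled LR12 peptide, and the 4 animals are labelled peptide control. LR12 is a peptide taken from TREM-like transcript 1 (TREML1) that competes for the ligands of the receptor TREM-1 on myeloid cells. The labels do not equate the peptide control with the scrambled peptide in so many words, and they give no dose, age or sex, nor the place of hour 0 in the protocol. The other arms held 4 animals labelled vehicle (Y31301 to Y31304) and 6 labelled LR12 (Y31309 to Y31314). Whether the vehicle animals received endotoxin is not stated in the labels. All arms share the species, the tissue and the hours sampled, and the replicates are animals. The number of arrays limits the precision.

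Endotoxin is sensed in blood through CD14 and TLR4 on monocytes and neutrophils, which switches on NF-kB and a first wave of cytokines, then interferon-driven genes and the inhibitors that shut the signal off. Monocytes and lymphocytes leave the circulation early in such a response and return later, while neutrophils are mobilised, so blood RNA mixes a change inside cells with a change in which cells are present. In these bulk samples, fewer cells of a type and less RNA per cell cannot be told apart.

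Values are log2 of the deposited array signal, and a change is the 8 h value minus the 4 h value. A gene was called at a Benjamini-Hochberg adjusted p below 0.05 in a limma model over all 56 arrays with the animal as a block. Human probes read macaque RNA here, so levels are not compared between genes. Beta-globin (HBB), the mark of blood, averaged 14.14 ± 0.11 (SD, n = 4) in the earlier and 13.90 ± 0.08 in the later samples, and it did not pass the test (adjusted p = 0.222).

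Y31305 stood apart from the other animals before the step began. The median log2 signal of 17 NF-kB genes at 2 h was 7.36 in Y31305 against 9.69, 9.56 and 9.83 in Y31306, Y31307 and Y31308. MARCO, a scavenger receptor of macrophages, was at 1.23 in Y31305 at 4 h and at 9.66, 7.68 and 8.97 in the others. The elafin gene PI3 read 7.45 in Y31305 and 13.76, 13.26 and 13.26 in the others at that hour. In each of these measures Y31305 lay far below the remaining animals, so the counts are given with and without it. By 4 h the NF-kB list no longer set Y31305 apart, at 7.22 against 7.61, 7.71 and 6.93 in Y31306, Y31307 and Y31308. The spiked poly-A control of Y31305 was 6.12 at 2 h (7.03 to 8.29 in the others) and 8.54 at 4 h (8.91 to 9.11). At 8 h it was 6.30, against 8.67 to 8.89 in the others, so only Y31305 changed widely in this control over the step. The log2 difference between 3′ and 5′ probe sets of beta-actin is often read as a sign of RNA quality. It was 2.58 in Y31305 at 2 h (1.41 to 1.90 in the others), 1.79 at 4 h (1.06 to 1.27) and 2.50 at 8 h (0.94 to 1.19). High values came with a low poly-A control, which is not RNA of the animal, also in Y31307 at 0 h (1.85 and 6.95). The beta-actin difference is therefore no measure of the RNA of Y31305 alone. The same difference for GAPDH read 1.65, 0.85, 1.20 and 0.81 at 4 h in Y31305 to Y31308 and 0.90, 0.55, 0.54 and 0.81 at 8 h, so it was lower at 8 h in 3 animals and level in Y31308. RNA quality and the handling of the arrays cannot be told apart here, and the part of RNA quality in the changes was not tested.

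**Figure D1:**
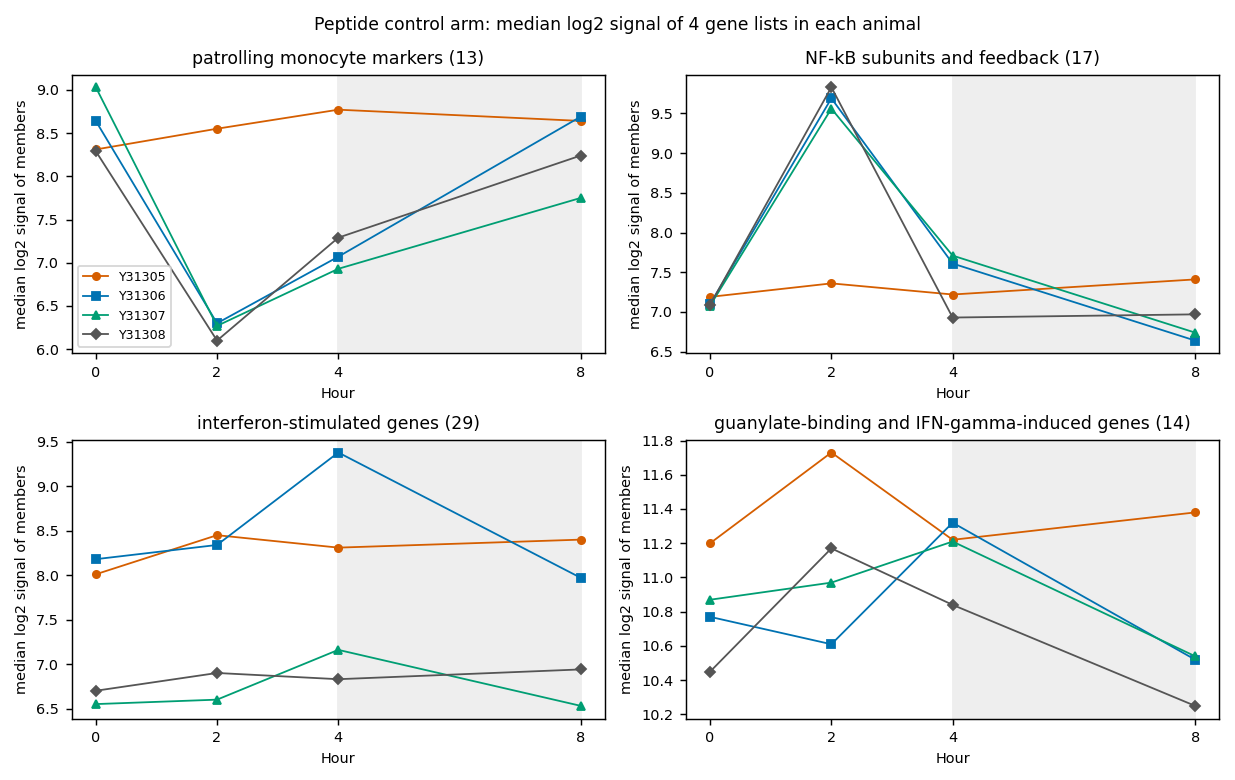
Median log2 signal of the measured members of 4 gene lists (vertical axis) at 0, 2, 4 and 8 h (horizontal axis), 1 line for each of the 4 peptide control animals, with the number of members in each title and the step from 4 to 8 h shaded. At 2 h the NF-kB list reads 7.36 in Y31305 and 9.56 to 9.83 in the others, and the patrolling monocyte markers read 8.55 in Y31305 and 6.10 to 6.30 in the others.

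With the deposited scaling, more genes were called higher than lower between 4 and 8 h. Of 16020 genes tested, 218 rose (1.36%) and 95 fell (0.593%), together 313 (1.95%). The called rises had a median change of 1.13 and the called falls of -0.99, against a median of 0.14 over all genes tested. All 4 animals moved the same way in 198 of the 218 rises and 80 of the 95 falls. The 4 h and 8 h values did not overlap for 99 of the called rises and 47 of the called falls, where 5.11% of all genes tested had no overlap. The calls rest on these same values. Shared direction and lack of overlap among called genes follow in part from that selection and are no further support.

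These counts rest on few animals and on the scaling. Without Y31305 the test called 405 rises and 203 falls (3.8% of genes), without Y31306 it called 7 and 1, without Y31308 it called 55 and 26, and without Y31307 it called 0, with 1824 genes at an unadjusted p below 0.05. With every array centred on its own median the split turned to 51 rises and 84 falls (0.843%), and the median of all genes moved from 0.14 to 0.04. Without the animal block 18 genes were called (0.112%). The hybridisation control, added to each array in a fixed amount, was lower at 8 h in all 4 animals: it read 12.33, 12.17, 12.32 and 11.99 at 4 h and 11.83, 11.86, 11.86 and 11.88 at 8 h. With its level as a covariate, 13 genes were called. Its part in the other calls was not tested further.

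The largest of the named falls was that of ETV5, a transcription factor of the ETS family. It read 6.41, 9.34, 10.23 and 8.93 at 4 h in Y31305 to Y31308, and 5.85, 5.41, 6.07 and 5.59 at 8 h. All values at 4 h were above all values at 8 h, though Y31305 came from a far lower start. The change of ETV5 was -3.00 ± 0.61 (SE), a fold of 7.99 (adjusted p = 0.00609), and without Y31305 it was -3.81 (adjusted p = 4.01e-04). The mean of ETV5 at 0 h was 5.95, close to its 8 h mean of 5.73. The call was lost without Y31306 (-2.69, adjusted p = 0.114) and without Y31307 (-2.61, adjusted p = 0.151).

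SOCS1, which blocks signalling of cytokine receptors through JAK kinases, read 7.35, 8.50, 8.28 and 8.01 at 4 h and 6.44, 6.06, 5.90 and 6.18 at 8 h. The groups did not overlap, and the change was -1.89 ± 0.40 (adjusted p = 0.00914). Taken as the mean over its probe sets, the change of SOCS1 was -1.13 and was not called (adjusted p = 0.123). SMAD7, an inhibitor of TGF-beta receptors, fell by 1.78 ± 0.47 (adjusted p = 0.0345) from 9.12 ± 0.64 (SD, n = 4) to 7.34 ± 0.40, again with no overlap. Without any of Y31306, Y31307 and Y31308 in turn, SOCS1 and SMAD7 kept their direction and were no longer called, at adjusted p from 0.0556 to 0.235.

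INHBA encodes the beta A subunit of activin, a cytokine released early in endotoxaemia. It read 6.67, 11.49, 10.82 and 11.31 at 4 h and 6.04, 7.86, 8.02 and 7.44 at 8 h. The 3 animals other than Y31305 were high at 4 h and much lower at 8 h, while Y31305 was low at both hours, so the groups overlapped. The change was -2.73 ± 0.75 (adjusted p = 0.045), and -3.43 without Y31305 (adjusted p = 0.00345). INHBA was not called without Y31306, Y31307 or Y31308, at adjusted p from 0.208 to 0.232, nor with centred arrays (-2.83, adjusted p = 0.0637). HAS2, a synthase of hyaluronan, fell by 2.09 ± 0.44 (adjusted p = 0.00906), from 6.20 ± 0.80 to 4.11 ± 0.96 with no overlap, and lost the call without Y31306 (0.0941) and without Y31307 (0.151).

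EZH2, the Polycomb histone methyltransferase, read 10.33, 12.02, 11.81 and 10.59 at 4 h and 10.27, 9.35, 9.19 and 8.53 at 8 h. Y31305 barely moved, by -0.06, while the others changed by -2.07 to -2.66. EZH2 changed by -1.85 ± 0.33 (adjusted p = 0.00247), and by -2.45 without Y31305 (adjusted p = 5.33e-05). PPM1H, a protein phosphatase, read 6.60, 9.52, 9.20 and 9.11 at 4 h and 6.03, 6.74, 6.53 and 6.41 at 8 h, where the 4 h value of Y31305 lay among the 8 h values. PPM1H changed by -2.18 ± 0.37 (adjusted p = 0.00227), and the vehicle and LR12 arms read -1.23 (adjusted p = 0.659) and -3.25 (adjusted p = 3.67e-10). EZH2 and PPM1H were among the 13 genes called beside the hybridisation control, at -2.12 (adjusted p = 0.0124) and -2.49 (adjusted p = 0.00747). Both lost the call without Y31306 (adjusted p = 0.0833 and 0.0544) and without Y31307 (0.101 and 0.0629).

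The remaining large falls were CLASP1, which binds the growing ends of microtubules (-1.65 ± 0.28, adjusted p = 0.00227), ZCRB1, an RNA-binding protein of the minor spliceosome (-2.18 ± 0.45, 0.00646), and SRGAP2 (-1.50 ± 0.32, 0.0101). SMC1B, a cohesin subunit of germ cells, changed by -2.07 ± 0.53 (adjusted p = 0.028) at low signals, from 4.19 ± 0.83 to 2.12 ± 1.20, and by -0.74 with an offset of 16 added before the log (adjusted p = 0.0529). PDCD1LG2, the ligand PD-L2 of the receptor PD-1, changed by -1.48 ± 0.42 at an adjusted p that rounds to 0.05 and lies just under it, and was not called with centred arrays (0.0626), with the offset (0.0785) or as the mean over its probe sets (-0.72, adjusted p = 0.507). CLASP1 was called in every fit that left out 1 animal except the fit without Y31307 (adjusted p = 0.0629). ZCRB1 and SRGAP2 lost the call without Y31306 and without Y31307, PDCD1LG2 without Y31308 as well, and SMC1B without any of the 4. ZCRB1 averaged over its probe sets changed by -0.75 and was not called (adjusted p = 0.183).

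**Figure D2:**
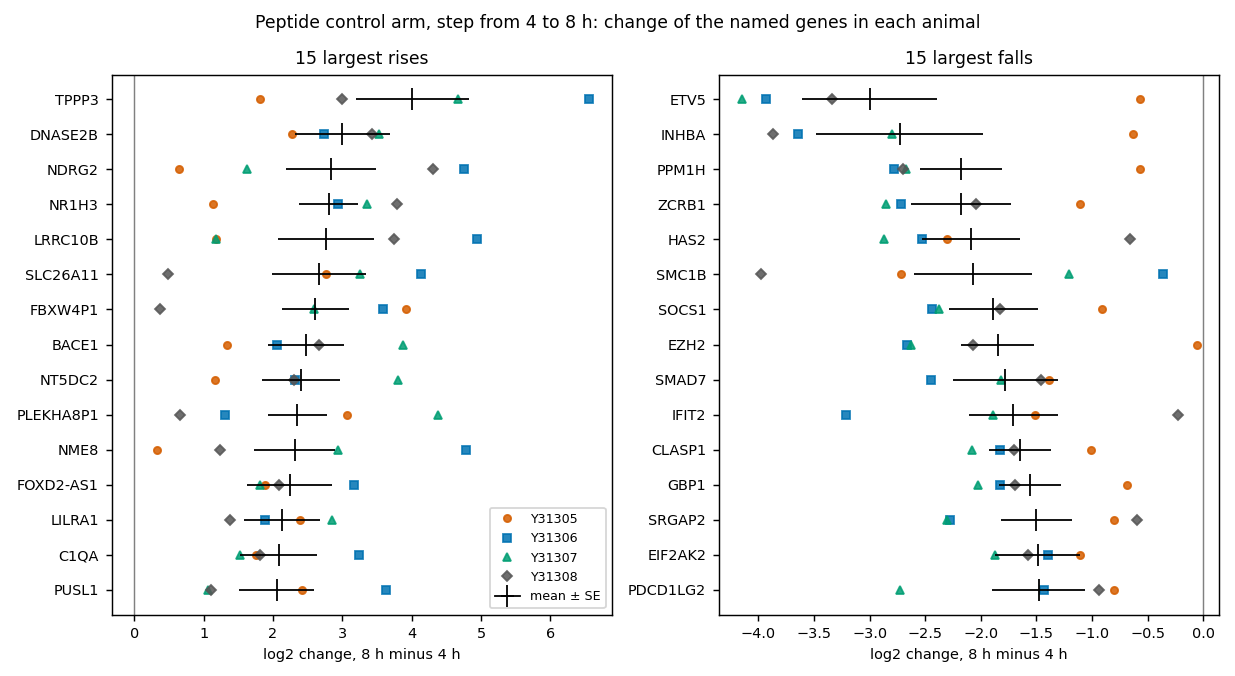
Change in log2 signal from 4 to 8 h (horizontal axes) of the 15 largest called rises (left) and the 15 largest called falls (right) that moved the same way in 4 of 4 animals, with 1 symbol per animal and the fitted mean ± SE as a black bar. For EZH2, PPM1H and ETV5 the symbol of Y31305 sits nearest to 0, at -0.06, -0.57 and -0.57.

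Most genes induced by interferons read lower at 8 h. Of 29 measured interferon-stimulated genes, 3 fell and 0 rose (limma), where 0.593% of all genes fell. The median change was -0.58 against 0.14 over all genes, and 27 of the 29 had a negative change. By animal, the median change was -0.23, -1.21, -0.42 and -0.38 in Y31305 to Y31308, and the fitted median was -0.29 without Y31306. The median level of the list still went from 8.31 to 8.40 in Y31305 and from 6.83 to 6.94 in Y31308. The 3 called falls were IFIT2 and the RNA sensors EIF2AK2 (PKR) and IFIH1 (MDA5). IFIT2, which binds foreign RNA, read 10.62, 11.18, 8.76 and 7.36 at 4 h and 9.11, 7.97, 6.87 and 7.13 at 8 h. It was lower at 8 h in all 4 animals, though by -0.23 in Y31308, and the wide spread between animals made the groups overlap. IFIT2 changed by -1.71 ± 0.40 (adjusted p = 0.0168), EIF2AK2 by -1.49 ± 0.38 (adjusted p = 0.0305) and IFIH1 by -1.06 ± 0.27 (adjusted p = 0.0255). Averaged over their probe sets, EIF2AK2 changed by -0.64 (adjusted p = 0.182) and IFIH1 by -0.68 (adjusted p = 0.315), and neither was called.

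Among the interferon-stimulated genes that did not pass, RIGI was nearest at -0.71 ± 0.20 (adjusted p = 0.0501), then RSAD2 at -1.06 ± 0.33 (adjusted p = 0.0827), and both were lower at 8 h in 4 of 4 animals. MX1 read -0.38 ± 0.38 (adjusted p = 0.672) and ISG15 -0.42 ± 0.21 (adjusted p = 0.305). Without Y31305 the list held 6 called falls, where 1.27% of all genes fell, without Y31308 1 (0.162%), and without Y31306 or Y31307 0 (limma). The list median was -0.56 in the vehicle arm with 0 called, and -0.82 in the LR12 arm with 17 called falls, where 4.93% of all genes fell. The median change of the list was negative in every arm, and whether it moved more in any of them was not shown.

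Guanylate-binding proteins and other genes driven by interferon gamma gave 4 called falls of 14 measured and 0 rises, beside 0.593% of all genes called lower. The list median was -0.38, and 5 of the 14 had a positive change. The list median changed by -0.10, -0.57, -0.84 and -0.28 in Y31305 to Y31308, and the fitted median was -0.07 without Y31307. GBP1, an interferon-induced GTPase, read 13.45, 13.15, 13.23 and 12.36 at 4 h and 12.77, 11.33, 11.20 and 10.66 at 8 h. Every animal was lower at 8 h, and the overlap came from the 8 h value of Y31305, which stood above the 4 h value of Y31308. GBP1 changed by -1.56 ± 0.28, a fold of 2.95 (adjusted p = 0.00241). The suffix _x_at of its probe set, and of those of EIF2AK2 and PLEKHA8P1, marks probes that may also bind related transcripts. GBP2 fell by 1.32 ± 0.28 (adjusted p = 0.00924), the immunoproteasome subunit PSMB9 fell by 0.56 ± 0.11 (adjusted p = 0.00657), and the peptide transporter subunit TAP1 fell by 0.76 ± 0.20 (adjusted p = 0.0372). The regulator IRF1 read -0.63 ± 0.19 and did not pass (adjusted p = 0.0721). TAP1 was not called with centred arrays (adjusted p = 0.0619). Without Y31306 or Y31307 none of the list was called, without Y31308 2 members fell (0.162% of all genes), and without Y31305 5 did (1.27%).

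CXCL10, a chemokine induced by interferon that draws T cells, was the only called member of 17 chemokines, beside 0.593% of all genes called lower. It read 7.31, 9.58, 8.26 and 6.89 at 4 h and 7.40, 5.23, 5.27 and 4.33 at 8 h. Y31305 moved by 0.08 while the other animals changed by -2.55 to -4.36, and the groups overlapped through Y31305. CXCL10 changed by -2.45 ± 0.57 (adjusted p = 0.0168), and by -3.30 without Y31305 (adjusted p = 0.00101). Without Y31306, Y31307 or Y31308 it was not called, at adjusted p from 0.0807 to 0.236.

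**Figure D3:**
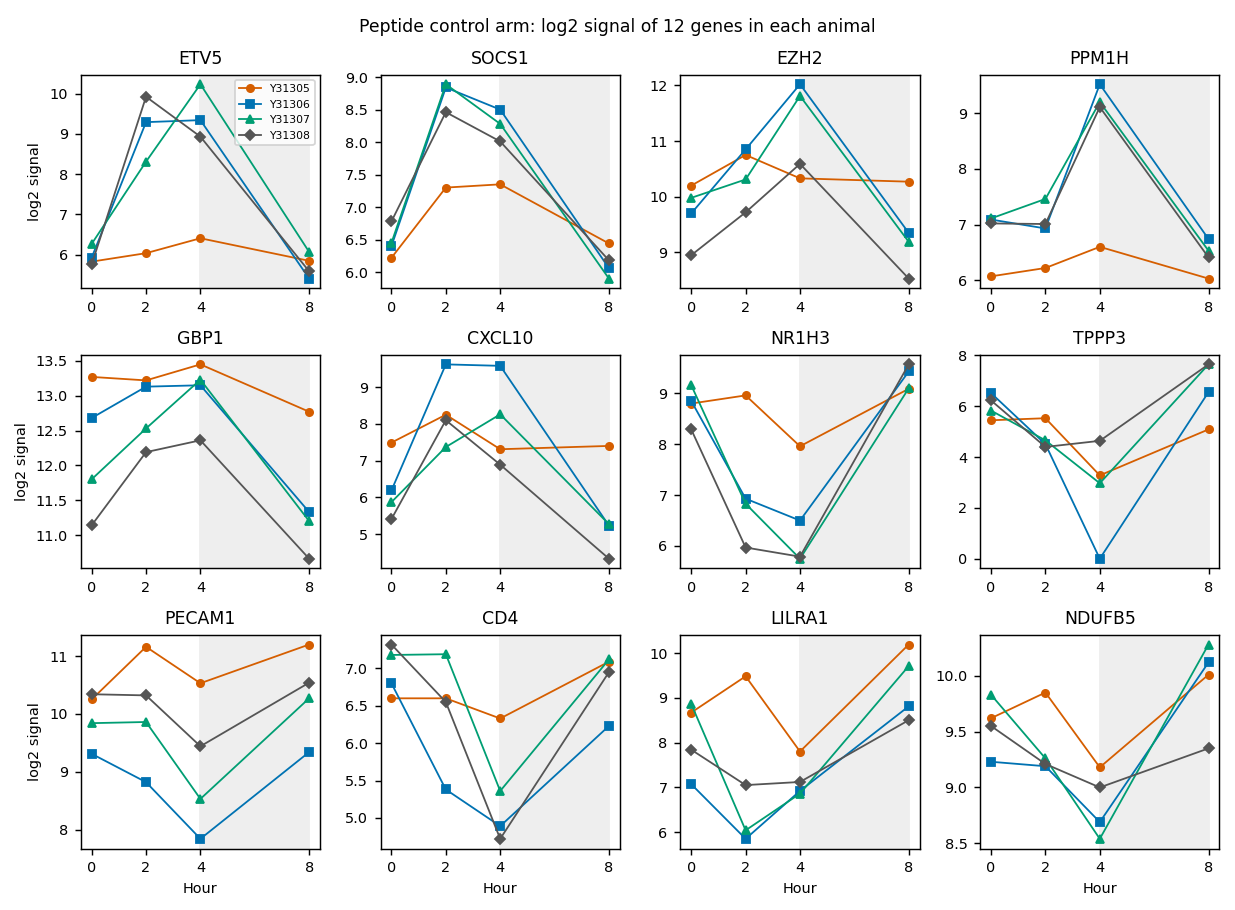
Log2 signal (vertical axes) of 12 genes at 0, 2, 4 and 8 h (horizontal axes), 1 line for each of the 4 peptide control animals, with the step from 4 to 8 h shaded. ETV5, SOCS1, EZH2, PPM1H, GBP1 and CXCL10 peak at 2 or 4 h in Y31306, Y31307 and Y31308 and read lower at 8 h, while NR1H3, TPPP3, PECAM1, CD4, LILRA1 and NDUFB5 read higher at 8 h than at 4 h in all 4 animals.

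Cytokine genes of the first wave gave no call in this step. IL1B read 8.99, 11.09, 10.93 and 10.79 at 4 h and 9.02, 10.09, 10.03 and 9.41 at 8 h. It was lower at 8 h in the 3 animals where it had been high, and level in Y31305. The change of IL1B was -0.81 ± 0.40 (adjusted p = 0.307). IL6 lay at 4.21 ± 0.78 at 4 h and 2.03 ± 0.78 at 8 h and read -2.18 ± 0.87 (adjusted p = 0.188). Its 8 h mean was near the 20th percentile of the 8 h arrays (1.57 to 2.22), and with an offset of 16 it read -0.79 (adjusted p = 0.271). TNF at 0.61 ± 0.43 (adjusted p = 0.509), CXCL8 at -0.36 ± 0.39 (adjusted p = 0.698) and CCL2 at -0.76 ± 0.63 (adjusted p = 0.592) did not pass either. The median over 16 inflammatory cytokines was -0.44. The receptor antagonist IL1RN read -0.62 ± 0.31 (adjusted p = 0.311).

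NF-kB subunits and the inhibitors that NF-kB induces had the lowest median of the 40 lists, -0.61 over 17 genes, with 0 called by limma, and 13 of the 17 had a negative change. NFKB1 was closest at -1.04 ± 0.32 (adjusted p = 0.0783), followed by NFKB2 at -1.29 ± 0.44 (adjusted p = 0.116). NFKBIA, the inhibitor IkB alpha, read -0.67 ± 0.24 (adjusted p = 0.144). By animal, the list median changed by 0.10 in Y31305, -1.16 in Y31306, -0.78 in Y31307 and -0.09 in Y31308. Without Y31305 4 members were called lower, beside 1.27% of all genes, among them NFKBIA at -0.87 (adjusted p = 0.021), and the list median was -0.87. In the vehicle arm the list median was -0.08 with 0 called. In the LR12 arm it was -0.98 with 9 called falls, where 4.93% of all genes fell.

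TREM1, TREML1, TLR4 and CD14 did not pass the test. TREM1 read 11.52, 7.42, 10.92 and 10.23 at 4 h and 12.02, 7.81, 11.10 and 10.56 at 8 h. It was slightly higher at 8 h in every animal and far lower in Y31306 than in the others at both hours. The change of TREM1 was 0.35 ± 0.37 (adjusted p = 0.69). TREML1 read -0.11 ± 0.30 (adjusted p = 0.896), TLR4 -0.00 ± 0.21 (adjusted p = 0.999) and CD14 -0.48 ± 0.23 (adjusted p = 0.294). TLR4 turned to 0.08 with quantile scaling, and TREML1 to 0.21 with the hybridisation control as a covariate. None of 17 TREM receptors and adaptors and none of 17 endotoxin recognition genes was called by limma, with medians of -0.20 and -0.00. Without Y31305, CD14 read -0.79 and was called (adjusted p = 0.0466).

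The rise with the lowest adjusted p was that of NR1H3, the oxysterol receptor LXR alpha, which turns on cholesterol efflux genes in macrophages. NR1H3 read 7.96, 6.50, 5.75 and 5.79 at 4 h and 9.09, 9.43, 9.10 and 9.57 at 8 h. The groups did not overlap, and the 8 h values were tight (9.30 ± 0.24, SD, n = 4). It rose by 2.80 ± 0.43, a fold of 6.98 (adjusted p = 0.00142), and its 0 h mean was 8.77. NR1H3 was called in 18 of 20 alternative fits, lost only without Y31307 (adjusted p = 0.0598) and with arrays centred and no animal block.

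TPPP3, a relative of a tubulin polymerisation protein, read 3.28, 0.00, 2.97 and 4.64 at 4 h and 5.09, 6.56, 7.65 and 7.65 at 8 h. The groups did not overlap, and the value of Y31306 at 4 h lay under the 20th percentile of its array. The change of 4.01 ± 0.82 (adjusted p = 0.00641) became 2.31 with an offset of 16 added before the log (adjusted p = 0.00378). DNASE2B, an acid DNase, at a fold of 7.98 (adjusted p = 0.0163) and a log2 change of 1.10 with the offset, and BACE1, the beta-secretase, at a log2 change of 2.48 ± 0.55 (adjusted p = 0.011) and 1.36 with the offset, also began from dim 4 h values. Their direction held with the offset and their size did not. Without Y31306 and without Y31307 none of these 3 was called.

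Other large rises were NDRG2, a gene of the N-myc downstream-regulated family (2.83 ± 0.65, adjusted p = 0.0155), NT5DC2, of the nucleotidase-like proteins (2.40 ± 0.56, 0.0168), LRRC10B (2.76 ± 0.69, 0.0255), SLC26A11, an anion transporter (2.66 ± 0.68, 0.028), NME8 (2.31 ± 0.58, 0.0246) and PUSL1, a relative of pseudouridine synthases (2.05 ± 0.54, 0.0372). SLC26A11, NME8 and PUSL1 had 4 h means of 1.57, 2.10 and 2.21, near the dim end of the arrays. With the offset SLC26A11 read 0.74 (adjusted p = 0.0867), NME8 0.61 (0.126) and FOXD2-AS1 0.83 (0.121), none of them called, and PUSL1 0.75 (0.0182). FBXW4P1 read 1.11, PLEKHA8P1 1.14, LRRC10B 1.56, NDRG2 1.86 and NT5DC2 1.87 with the offset, all called but smaller. With centred arrays SLC26A11 (0.0562), PUSL1 (0.0746) and FOXD2-AS1 (0.063) were not called. FBXW4P1 (2.61 ± 0.48, 0.00247) and PLEKHA8P1 (2.35 ± 0.43, 0.00247) are annotated as pseudogenes and FOXD2-AS1 (2.24 ± 0.61, 0.0417) as an antisense RNA, so their probes may read a related or overlapping transcript. NT5DC2 averaged over its probe sets read 0.74 (adjusted p = 0.476), BACE1 0.88 (0.24) and FOXD2-AS1 1.01 (0.408), none of them called. Without Y31306 and without Y31307, each of these rises but PLEKHA8P1 without Y31306 lost the call.

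LILRA1, a leukocyte immunoglobulin-like receptor of monocytes, read 7.80, 6.92, 6.86 and 7.12 at 4 h and 10.19, 8.81, 9.71 and 8.50 at 8 h. The groups did not overlap, and LILRA1 rose by 2.13 ± 0.55 (adjusted p = 0.0305). C1QA, a chain of the complement starter C1q made by monocytes and macrophages, rose by 2.08 ± 0.55 (adjusted p = 0.0365), from 3.14 ± 1.06 to 5.22 ± 0.86. The 4 h mean of C1QA lay below the medians of the 4 h arrays (3.79 to 4.28), and with the offset C1QA read 1.08 (adjusted p = 0.0289). SCARB2, a lysosomal membrane protein, rose by 1.40 ± 0.38 (adjusted p = 0.0388). SCARB2 was the only call among 12 scavenger receptor genes, beside 1.36% of all genes called higher. Of the fits that left out 1 animal, only the fit without Y31305 called these 3 genes. With centred arrays none of the 3 was called (adjusted p = 0.0845 for LILRA1, 0.0712 for C1QA and 0.0933 for SCARB2), and SCARB2 averaged over its probe sets read 0.88 (adjusted p = 0.132).

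Markers of patrolling monocytes had the highest median change of the 40 lists, 1.22 over 13 measured genes against 0.14 over all genes, and 12 of the 13 were positive. The adhesion molecule PECAM1 was the only called member, beside 1.36% of all genes called higher. It read 10.53, 7.84, 8.53 and 9.44 at 4 h and 11.20, 9.34, 10.27 and 10.54 at 8 h. All 4 animals gained, from different starting levels, so the groups overlapped while the paired change of PECAM1 was 1.25 ± 0.25 (adjusted p = 0.00523). CSF1R, the receptor of macrophage colony-stimulating factor, read 1.51 ± 0.44 (adjusted p = 0.0627) and was higher in 4 of 4 animals, as were MS4A7 at 1.45 ± 0.43 (adjusted p = 0.0647) and the chemokine receptor CX3CR1 at 0.96 ± 0.38 (adjusted p = 0.183). By animal the list median changed by 0.23 in Y31305, 1.52 in Y31306, 1.39 in Y31307 and 1.34 in Y31308. In the vehicle arm the list median was 0.30 with 0 called. In the LR12 arm it was 1.37 with 7 called rises and 1 called fall, where 7.55% of all genes rose and 4.93% fell.

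Without Y31305, 6 of the 13 patrolling monocyte markers were called higher, where 2.53% of all genes were, and the list median was 1.45. Without Y31306, where 0.0437% of all genes were called higher, or without Y31307 none was called, and without Y31308 1 was (0.343%). At 4 h the list level was 8.77 in Y31305 and 6.93 to 7.29 in the others, and at 8 h 8.64 against 7.75 to 8.69. Of 13 classical monocyte markers 0 were called by limma, and their median was 0.23, with 11 of the 13 positive. CSF1R is in both lists, and CPVL, of the classical list, read 1.68 ± 0.52 (adjusted p = 0.0783) and was higher in 4 of 4 animals. Whether the lists differed was not tested. The defining transcript FCGR3A was not measured as a gene of its own.

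T cell markers had a median of 0.42 over 20 genes, with 18 of the 20 positive and 1 call, beside 1.36% of all genes called higher. The call was CD4, the co-receptor of helper T cells, which monocytes of primates also carry. CD4 read 6.33, 4.89, 5.36 and 4.72 at 4 h and 7.09, 6.23, 7.12 and 6.95 at 8 h. It was higher in every animal, and the groups overlapped only through the 4 h value of Y31305. CD4 rose by 1.52 ± 0.31 (adjusted p = 0.00609), while LCK, a kinase of T cells, read 0.70 ± 0.39 (adjusted p = 0.375), CD3D 0.52 ± 0.30 (adjusted p = 0.38) and CD28 0.91 ± 0.44 (adjusted p = 0.293). Without Y31306, Y31307 or Y31308 CD4 was not called, at adjusted p from 0.0544 to 0.117.

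Of 21 markers of natural killer and cytotoxic cells, CST7, an inhibitor of cathepsins in their granules, was called, at 1.21 ± 0.31 (adjusted p = 0.0327), and the list median was 0.26. Among all genes tested, 1.36% were called higher. GZMB, the protease granzyme B, read -0.22 ± 0.30 (adjusted p = 0.777). B cell markers had a median of 0.04 with 0 of 18 called, mature neutrophil markers -0.02 with 0 of 19, erythroid markers -0.27 with 0 of 19 and platelet markers 0.12 with 1 of 14, all by limma. The platelet call was PROS1, protein S, an anticoagulant that the coagulation list also holds, at 1.12 ± 0.28 (adjusted p = 0.0246). CST7 and PROS1 were called only in the fit without Y31305 among the fits that left out 1 animal, and neither was called with centred arrays (adjusted p = 0.0931 and 0.0932).

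**Figure D4:**
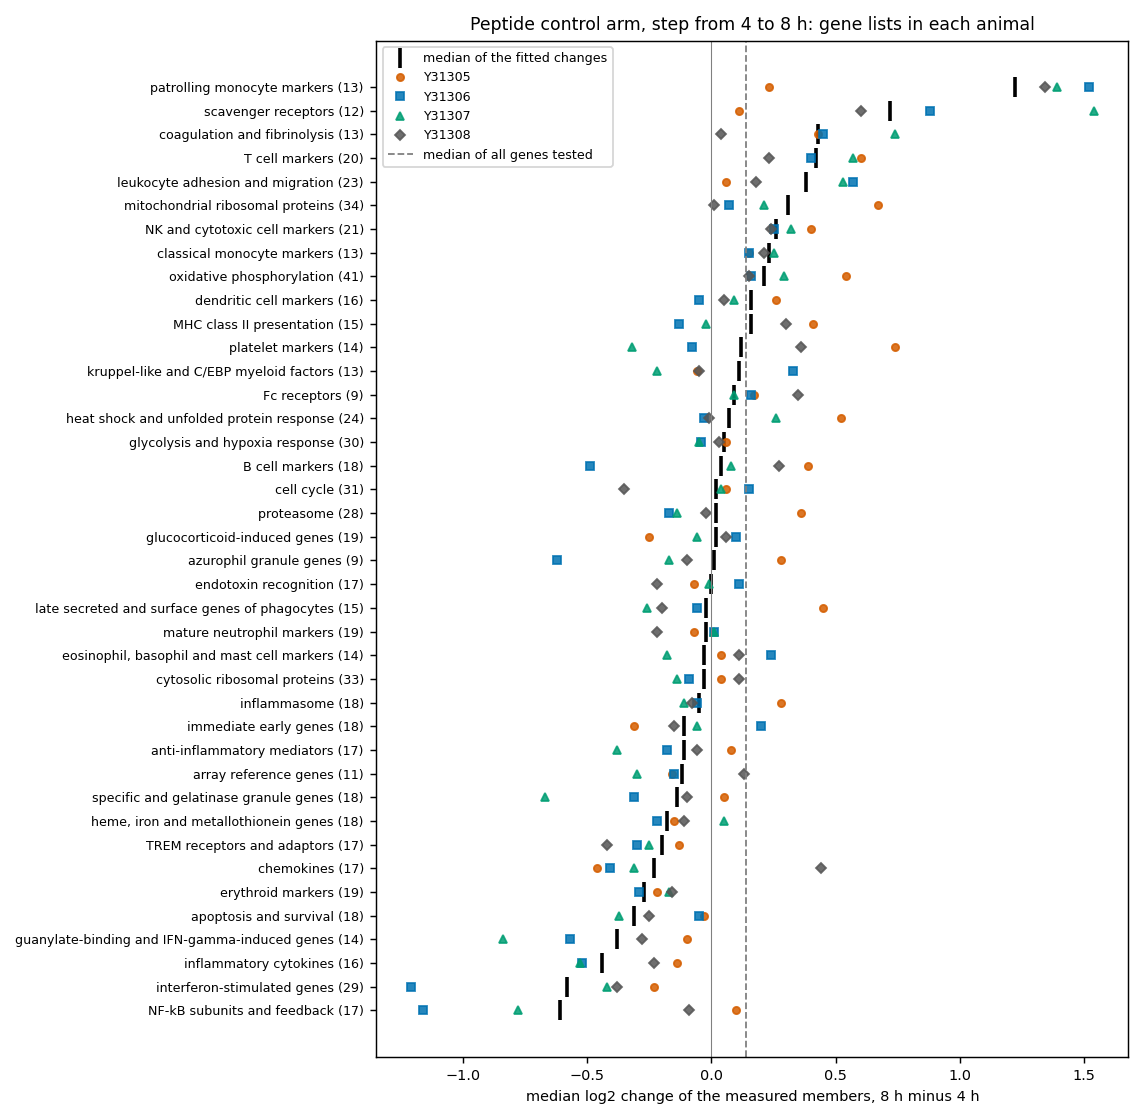
Median log2 change from 4 to 8 h (horizontal axis) of 40 gene lists with the number of measured members in brackets, 1 symbol per animal, the median of the fitted changes as a black bar and the median of all genes tested, 0.14, as a dashed line. The patrolling monocyte markers (1.22) and scavenger receptors (0.72) lie highest, and the NF-kB (-0.61) and interferon-stimulated genes (-0.58) lowest.

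Late genes of phagocytes did not move together. CA4, a carbonic anhydrase, read 8.10, 9.44, 8.98 and 10.06 at 4 h and 9.97, 11.08, 10.59 and 11.69 at 8 h. Each animal gained by nearly the same amount, 1.61 to 1.87, so the paired change was even while the groups overlapped. CA4 rose by 1.69 ± 0.44 (adjusted p = 0.0318), and no fit that left out 1 animal called it (adjusted p from 0.0587 to 0.174). It was not called with centred arrays (0.0576) or as the mean over its probe sets (0.0506). MARCO read 1.45 ± 0.95 (adjusted p = 0.473), RETN, which encodes resistin, 0.70 ± 0.43 (adjusted p = 0.43) and PI3 -0.62 ± 0.96 (adjusted p = 0.803). Their lists, late secreted and surface genes of phagocytes and scavenger receptors, had medians of -0.02 and 0.72.

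Some genes of mitochondria were called higher, beside 1.36% of all genes tested. NDUFB5, a subunit of respiratory complex I, lay between 8.54 and 9.18 at 4 h and between 9.35 and 10.28 at 8 h. The groups did not overlap, with the smallest gain in Y31308. NDUFB5 rose by 1.09 ± 0.21 (adjusted p = 0.00442) and NDUFA9, of the same complex, by 0.88 ± 0.24 (adjusted p = 0.0378), out of 41 oxidative phosphorylation genes with a median of 0.21. MRPS35 rose by 1.16 ± 0.31 (adjusted p = 0.04), out of 34 mitochondrial ribosomal proteins with a median of 0.31. Over all genes the median was 0.14. With centred arrays these list medians were 0.11 and 0.21, against 0.04 over all genes. By animal, the list medians were highest in Y31305, at 0.54 and 0.67. Of 33 cytosolic ribosomal proteins 0 were called by limma, with a median of -0.03. NDUFB5 kept its call without Y31305 and without Y31308, and NDUFA9 in no fit that left out 1 animal. MRPS35 was called without Y31305 (0.0402), and not without Y31306, Y31307 or Y31308 (adjusted p from 0.12 to 0.203). With centred arrays NDUFA9 (adjusted p = 0.171) and MRPS35 (0.109) were not called.

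The remaining lists gave 0 to 2 calls each, beside 1.36% of all genes called higher and 0.593% called lower. PYCARD, the inflammasome adaptor ASC, rose by 1.07 ± 0.24 (adjusted p = 0.0108), the proteasome subunit PSMD2 by 1.02 ± 0.22 (adjusted p = 0.0108) and the adhesion molecule ICAM3 by 0.80 ± 0.19 (adjusted p = 0.0168). BCL2L1, which holds back apoptosis, fell by 1.21 ± 0.30 (adjusted p = 0.0246), and the growth factor VEGFA fell by 0.86 ± 0.21 (adjusted p = 0.0225). Of 19 glucocorticoid-induced genes, CEBPD, a myeloid transcription factor, fell by 0.75 ± 0.18 (adjusted p = 0.0168) and TXNIP, an inhibitor of thioredoxin, by 0.99 ± 0.28 (adjusted p = 0.0457), with a list median of 0.02. CPA3, a protease of mast cells and basophils, changed by -2.53 ± 0.70 (adjusted p = 0.0426), with an 8 h mean of 0.52, and by -0.38 with the offset (adjusted p = 0.4). Without Y31306 and without Y31307 none of these 8 genes was called. With centred arrays PYCARD (adjusted p = 0.0515), PSMD2 (0.0921), ICAM3 (0.0907) and VEGFA (0.0535) were not called. Averaged over probe sets, BCL2L1 read -0.86 (0.14), VEGFA -0.56 (0.158), CEBPD -0.48 (0.413) and TXNIP -0.49 (0.202), and none of the 4 was called.

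Of the 15 largest rises, 10 were called lower at 4 h than at 0 h, and of the 15 largest falls, 11 were called higher. At 8 h against 0 h, 1 of each set was called, PUSL1 at 1.91 (adjusted p = 0.0262) and SMC1B at -1.90 (adjusted p = 0.0219). The changes from 0 to 4 h, 0 to 8 h and 4 to 8 h share arrays, so these values stand side by side and are not compared. From 0 to 4 h 925 genes were called higher (5.77%) and 2080 lower (13%), together 18.8%, and from 0 to 8 h 522 higher (3.26%) and 478 lower (2.98%), together 6.24%. NR1H3 read -2.28 at 4 h against 0 h (adjusted p = 3.67e-04) and 0.53 at 8 h (adjusted p = 0.539). EZH2 read 1.48 (adjusted p = 0.00184) and -0.38 (adjusted p = 0.576). CA4 read 3.42 (adjusted p = 8.50e-06) and 5.11 (adjusted p = 1.33e-10), so it stood higher against 0 h at both hours.

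The same step was fitted in the other arms. In the vehicle arm 0 genes were called by limma, with 878 at an unadjusted p below 0.05 and a median change of 0.08. In the LR12 arm, with 6 animals, 1209 rose (7.55%) and 790 fell (4.93%), together 12.5%, with a median of 0.04. NR1H3 read 2.80 ± 0.43 in the peptide control arm, 1.34 ± 0.43 in the vehicle arm (adjusted p = 0.678) and 4.14 ± 0.35 in the LR12 arm (adjusted p = 8.85e-11). ETV5 read -3.00 ± 0.61, -0.27 ± 0.61 (adjusted p = 0.98) and -2.77 ± 0.50 (adjusted p = 1.05e-04) in the same order. CXCL10 read -2.45 ± 0.57, -1.18 ± 0.57 (adjusted p = 0.898) and -5.44 ± 0.47 (adjusted p = 8.85e-11).

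The difference of the steps was tested itself. Between the peptide control and vehicle arms 0 genes were called by limma, with 1018 at an unadjusted p below 0.05 against 2576 for the peptide control step alone. Between the peptide control and LR12 arms 1 gene of 16020 was called (0.00624%), with 1010 at an unadjusted p below 0.05. It was FBXW4P1, which read 1.80, 1.33, 2.17 and 4.88 at 4 h and 5.72, 4.91, 4.75 and 5.25 at 8 h under the peptide control. Y31308 was already high at 4 h, so the groups overlapped. FBXW4P1 changed by 2.61 ± 0.48 there and by -0.95 ± 0.39 in the LR12 arm, a difference of 3.57 ± 0.61 (adjusted p = 0.0123). That call was lost without Y31305, Y31306, Y31307, Y31309 or Y31314, with an offset of 16, and with either control level as a covariate. For the other named genes no difference between arms was shown.

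**Figure D5:**
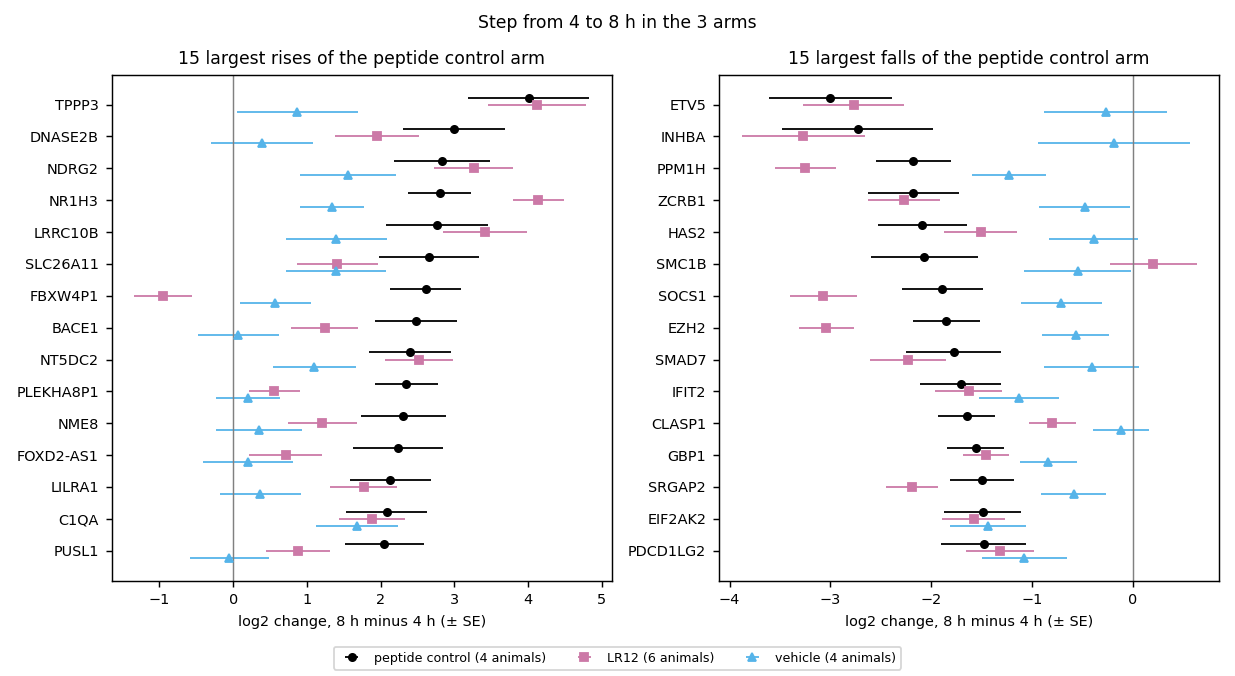
Fitted change in log2 signal from 4 to 8 h with its SE (horizontal axes) for the 15 largest rises and 15 largest falls of the peptide control arm, in the peptide control (4 animals), LR12 (6 animals) and vehicle (4 animals) arms. Genes were picked on the black points, and for FBXW4P1 the LR12 point lies at -0.95 against 2.61.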

How the data were processed

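Whole blood was drawn into PAXgene tubes and biotinylated cDNA was made from 50 ng of total RNA, per the labels' protocols. The authors deposited linear array intensities of 54675 probe sets on 56 arrays, which MAS5 produced, per the submitters' processing notes. Its version is not given in the sources used here. The mean after trimming 2% was 150 on every array, so arrays share a mean and not a median. A genome build is not given, and no coordinates or sequences are used.

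Intensities were put on the log2 scale with no offset. Probe sets above their array's median on at least 4 arrays were kept (38767), and each gene was read by its brightest kept probe set with exactly 1 symbol, which gave 16020 genes, 13561 of them with a symbol of the macaque gene table. limma 3.58.1 in R 4.3.3 fitted the 12 groups of arm and hour with the animal as a fixed block (33 residual degrees of freedom), trended and robust, with two-sided tests and Benjamini-Hochberg adjustment within a comparison. The animal numbers pair the arrays: residuals of the same animal correlated at a mean of 0.18, and those of different animals at -0.0294. The random block used statmod 1.5.0. No 2 arrays correlated above 0.922. The script was tested on simulated data.

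Named genes are the 15 largest called rises and falls seen in 4 of 4 animals above the mean array median, called members of the 40 lists, up to 4 members of lowest p per list and 20 set genes. The arm, the hours and the lists were chosen with earlier results of these data known. Genes named outside the rule were chosen after their values were seen. The alternatives covered centring, quantile scaling, the offset, filters, probe sets, blocks, covariates, fewer arrays and leaving out each animal.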

Additional observations from a re-analysis of the deposited data

Results flagged for a closer look

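Among 86 groups of 4 values checked, 8 held a value far from the other 3. Most groups were changes of genes picked on these same values in the same animals, so the count cannot be set against a chance rate. The change of C1QA in Y31306 was 3.24, against 1.52 to 1.81 in the other animals. The change of CA4 in Y31305 was 1.87, against 1.61 to 1.65. GBP2 changed by -0.10 in Y31305 and by -1.61 to -1.82 in the others. FANCM changed by -0.01 in Y31305 and by -1.37 to -1.44 in the others. PKP4 changed by 0.60 in Y31305 and by -2.08 to -2.30 in the others, and SMS by 0.44 against -2.68 to -2.96. PPM1H changed by -0.57 in Y31305 and by -2.67 to -2.78 in the others. The poly-A control of Y31305 at 8 h was 6.3, against 8.67 to 8.89. The step of FBXW4P1 differed between the peptide control and LR12 arms by 3.57 (limma adjusted p = 0.0123).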

How the results depend on the processing

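None of the 62 called genes named in the text reversed under the alternatives that gave them a value, all 20 for 57 of them and 19 for the other 5. Of the 62, 23 lost the call with centred arrays, 7 with the offset and 21 with the mean of a gene's probe sets. The 313 calls became 135 with centred arrays, 206 with the mean of a gene's probe sets, 200 with plain moderation, 146 with a random block, 18 with no replicate block, 13 with the hybridisation control covariate, 168 from the 8 arrays alone and 61 from the 16 arrays of the arm. Leaving out 1 animal gave 0 to 608. Chosen after seeing the data, centred arrays gave 473 without Y31305 (119 rises and 354 falls) and 0 with no replicate block (1305 at an unadjusted p below 0.05, limma). The counts kept within 1.5 times the main one were 229 with quantile scaling, 335 with the offset, 250 unfiltered, 377 with a stricter filter, 248 with the poly-A covariate and 434 with the array median as a covariate. In all, 76 genes (39 rises, 37 falls) stayed called under 6 of the alternatives: centring, quantile scaling, offset, poly-A, random block and array median. That count leaves out the settings that cut the calls most, and no gene was called in every alternative, as the fit without Y31307 called 0.

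LR12 calls were 1999, and 909 with no replicate block. Leaving out 1 animal gave 0 to 1 calls for vehicle, 0 to 3 for peptide control minus vehicle and 0 to 2 for peptide control minus LR12. That last count was 0 with the offset, the hybridisation covariate and the poly-A covariate. Uncalled signs turned with the hybridisation covariate for CCL2 (0.04), CXCL8 (0.17), PI3 (0.13), HBB (0.04) and TREML1 (0.21). With quantile scaling HBB read 0.05 and TLR4 0.08, and TLR4 read 0.00 with the offset, 0.07 with the mean of probe sets and 0.03 with the array median. Centred without Y31305, CD74 read -0.08 and TNF -0.18. Leaving out 1 animal gave -0.13 to 0.15 for TLR4 and -0.59 to 0.17 for TREML1. The causes were not tested. Dim signals limit the size of changes from low levels.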

Other observations

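Beyond the genes and lists above, 10 genes kept their call with the hybridisation control level as a covariate, and they are named here because of that outcome. USP42, a deubiquitinase, read 10.14, 10.43, 10.39 and 10.05 at 4 h in Y31305 to Y31308 and 9.65, 9.23, 9.46 and 9.03 at 8 h, with no overlap. It changed by -0.91 ± 0.18 without the covariate (adjusted p = 0.00442) and by -1.08 ± 0.20 with it (adjusted p = 0.0124). SMS, spermine synthase, read 9.20, 11.79, 11.58 and 11.41 at 4 h and 9.64, 8.88, 8.62 and 8.73 at 8 h, so it was higher at 8 h in Y31305 and much lower in the others. It changed by -2.03 ± 0.38 (adjusted p = 0.00336). UBR1, a ubiquitin ligase of the N-end rule, at -0.65 ± 0.14 (adjusted p = 0.0101), XRN1, an exonuclease that degrades decapped RNA, at -0.54 ± 0.12 (adjusted p = 0.016), and FANCM, a DNA translocase of the Fanconi anaemia pathway, at -1.05 ± 0.24 (adjusted p = 0.0149) had no overlap between the hours.

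PSTPIP1, an adaptor of the actin skeleton in blood cells, read 7.24, 6.07, 6.90 and 6.72 at 4 h and 8.21, 7.43, 8.06 and 8.31 at 8 h. The groups did not overlap, and PSTPIP1 rose by 1.27 ± 0.22 (adjusted p = 0.00227). SLC8B1, a sodium and calcium exchanger of mitochondria, rose by 0.68 ± 0.17 (adjusted p = 0.0225). PKP4 at -1.48 ± 0.33 (adjusted p = 0.0131) and KSR1, a scaffold of the MAP kinase cascade, at -0.79 ± 0.21 (adjusted p = 0.0394) were lower in 3 of 4 animals. CCN1, a matrix protein, read 2.75 ± 0.75 (adjusted p = 0.0413) from a dim 4 h mean of 1.07. Without Y31307 none of these 10 genes was called (adjusted p from 0.0629 to 0.335). Without Y31306 only PSTPIP1 was (0.0492), with the others at 0.0941 to 0.224. Without Y31308 only PSTPIP1 (0.0329), USP42 (0.0427) and SMS (0.0468) were, with the others at 0.0694 to 0.362. These fits held no covariate. With centred arrays UBR1 (0.0535), XRN1 (0.0851), SLC8B1 (0.0853), KSR1 (0.0928) and CCN1 (0.0545) were not called. Averaged over probe sets, USP42 (0.0623), XRN1 (0.0816), SLC8B1 (0.135), PKP4 (0.0998), KSR1 (0.298) and CCN1 (0.484) were not called, and CCN1 read 0.60 with the offset (adjusted p = 0.17).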
